A study of Rattus norvegicus with 35 samples.

Results

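Apolipoproteins were followed in the liver of rats given the flame retardant TBB. The set comprised 10 genes (Apoa1, Apoa2, Apoa4, Apoa5, Apob, Apoc1, Apoc2, Apoc3, Apoe and Apom) of the 14217 genes that had a probe set annotated with a single symbol, and 12 probe sets of the 31042 tested. A probe set is the group of short array probes that reads 1 transcript. Apoe and Apob had 2 probe sets each and the other members 1, and each gene was read from its brightest set over all arrays. The family was chosen by measured values, the lower Apoa1 and Apoa4 values at 550 mg/kg against vehicle, so their values there are given as a description without a test. The other 8 genes entered by family name and were tested in every comparison.

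Apolipoproteins are the protein part of the particles that carry fat through plasma. The liver builds very low density lipoprotein around Apob and passes triglyceride out in it, and it secretes Apoa1, around which high density lipoprotein forms and returns cholesterol. The smaller proteins of the A, C and E groups move between particles and govern the lipases and receptors that act on them, and in rodents Apoa4 is made by both liver and intestine.

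TBB is 2-ethylhexyl-2,3,4,5-tetrabromobenzoate, a brominated flame retardant. Male Harlan Sprague Dawley rats on NTP-2000 diet, aged 7 weeks when the study began, received it by gavage on 5 consecutive days in corn oil at 5 ml/kg. Vehicle animals, which stand for a dose of 0, gave 5 arrays, and the doses of 0.05, 0.55, 5.50, 55 and 550 mg/kg gave 6 arrays each. Left liver lobe RNA, taken 1 day after the last dose, was read on Affymetrix 3' arrays, 35 in all. The labels list separate samples without tying each to an animal of its own, so a p-value reflects how far these samples scatter, and that scatter may be technical. Values are log2 expression values, on which a difference of 1 is a doubling. An array value does not measure 1 transcript against another, so levels are compared within a gene.

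The arrays were alike, any 2 of them correlating at 0.988 to 0.996. Exposure was visible in Cyp1a1, a cytochrome P450 of xenobiotic metabolism, which stood at 4.53 in vehicle, 8.78 at 55 mg/kg and 11.86 at 550 mg/kg (adjusted p = 7.7e-22, limma, 550 mg/kg against vehicle). Acot1, an acyl-CoA thioesterase, went from 3.07 to 6.23 at 550 mg/kg (adjusted p = 5.5e-05, limma). Hepatocyte identity was plain, since Alb (albumin) and Ttr (transthyretin) had means of 14.62 and 14.07, at percentile 100 of all probe sets. For a typical probe set the 95% interval of a dose's difference reached 0.172 to either side.

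Apolipoprotein genes lie in clusters. In the RefSeq gene order of the rat assembly GRCr8, Apoa1, Apoc3, Apoa4 and Apoa5 follow one another on chromosome 8, and Apoc2, Apoc4, Apoc1 and Apoe follow one another on chromosome 1. The 250 bases before the start of Apoa4 and Apoa5 are shown because these are direct neighbours of which 1 was lower at 550 mg/kg and the other was not called. RefSeq promoters (GRCr8, from 250 bases before to 50 after a start) were matched for 6 of the 10 members, namely Apoa4, Apoa5, Apoc1, Apoc2, Apoe and Apom. Both sequences lie on the plus strand, Apoa4 at chr8:55435529-55435778 and Apoa5 at chr8:55457621-55457870, the first of the Apoa5 starts listed. Capitals mark matches to the motifs searched.
Apoa4: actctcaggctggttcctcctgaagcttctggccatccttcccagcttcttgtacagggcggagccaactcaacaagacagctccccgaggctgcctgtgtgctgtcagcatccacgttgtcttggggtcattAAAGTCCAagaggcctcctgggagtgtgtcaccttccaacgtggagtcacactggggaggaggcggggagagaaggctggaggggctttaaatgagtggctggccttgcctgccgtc
Apoa5: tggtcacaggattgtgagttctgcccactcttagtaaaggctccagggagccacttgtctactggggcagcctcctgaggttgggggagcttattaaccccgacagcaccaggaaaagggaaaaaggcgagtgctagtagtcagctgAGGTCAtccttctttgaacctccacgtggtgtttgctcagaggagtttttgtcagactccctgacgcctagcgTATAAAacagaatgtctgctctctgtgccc

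Short motifs were searched on both strands of the whole 300-base windows. AAAGTCCA, the core of the direct repeat that the hepatocyte nuclear receptor HNF4 is known to bind, began 117 bases before the Apoa4 start, and 1.37% of all 33469 promoters held it. AGGTCA, a site at which nuclear receptors are known to bind, began 103 bases before the Apoa5 start and was present in 16.2% of promoters. TATAAA, the TATA box, began 30 bases before the Apoa5 start and 40 before that of Apoc2, and 14.2% of promoters held it. GCGTG, the core of the xenobiotic response element, was in 29.7% of promoters and its letters were not in the windows of these 6 members. These are matches of letters, and binding was not measured.

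Apoa1, the main protein of high density lipoprotein, was lower at 550 mg/kg in every array. The 5 vehicle arrays read 13.42, 13.32, 13.60, 13.36 and 13.45, and the 550 mg/kg arrays ran from 12.70 through a median of 12.91 to 13.20. The groups did not overlap. All 6 arrays at 550 mg/kg also lay below each of the other 29 arrays, whose lowest value was 13.23 and median 13.36. The mean was 13.43 ± 0.11 (SD, n = 5) in vehicle and 12.92 ± 0.163 (SD, n = 6) at 550 mg/kg, a difference of -0.51 ± 0.06 (SE), or 1.42-fold lower. Against the 3 lower doses (0.05, 0.55 and 5.50 mg/kg, 18 arrays) the difference was -0.43 ± 0.05, and against 55 mg/kg it was -0.38 ± 0.06. These comparisons share the 6 arrays at 550 mg/kg. Over all probe sets, 0.548% had all 550 mg/kg arrays below all vehicle arrays (1.34% below or above), and 0.0193% had them below all 29 others.

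Below 550 mg/kg the Apoa1 means were 13.37 ± 0.0463 at 0.05, 13.35 ± 0.0965 at 0.55, 13.32 ± 0.0551 at 5.50 and 13.30 ± 0.0581 at 55 mg/kg (SD, n = 6 each). They stood in the order of the doses, with vehicle highest. The whole step from vehicle to 55 mg/kg was 0.13, and no neighbouring groups in that order differed by more than the pooled SD within groups, 0.0966. The test that shares no array with the comparison behind the choice of this gene is 55 mg/kg against the 3 lower doses, and there the difference was -0.05 ± 0.05 (95% interval -0.15 to 0.05, adjusted p = 1.0, limma). Of all probe sets 0.00644% were called in that comparison, 2 in number and both higher, and 0 of the 10 apolipoproteins were called. At an unadjusted p under 0.05 there were also 0 of the 10, against 3.49% of all probe sets.

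Apoa4, a protein of triglyceride-rich particles and high density lipoprotein, was lower at 550 mg/kg by a larger amount. Its vehicle arrays read 11.66, 11.61, 12.03, 11.78 and 11.79, and its 550 mg/kg arrays had a lowest value of 10.77, a median of 11.08 and a highest of 11.26. The groups did not overlap, and 5 of the 6 arrays at 550 mg/kg lay below all 29 others, the lowest of which was a 0.05 mg/kg array at 11.22. The mean went from 11.77 ± 0.164 (SD, n = 5) to 11.02 ± 0.197 (SD, n = 6), a difference of -0.75 ± 0.11, or 1.68-fold lower. It was -0.65 ± 0.08 against the 3 lower doses and -0.77 ± 0.10 against 55 mg/kg.

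Apoa4 did not stand in dose order below 550 mg/kg. The means were 11.58 ± 0.229 at 0.05, 11.79 ± 0.161 at 0.55, 11.64 ± 0.161 at 5.50 and 11.79 ± 0.177 at 55 mg/kg (SD, n = 6 each). From the highest mean down, the order was 55, 0.55, vehicle, 5.50, 0.05 and 550 mg/kg, and the first 5 spanned 0.206, beside a pooled SD within groups of 0.184. At 55 mg/kg against the 3 lower doses Apoa4 differed by 0.12 ± 0.08 (95% interval -0.05 to 0.29, adjusted p = 1.0, limma). So neither Apoa1 nor Apoa4 was called at 55 mg/kg against the 3 lower doses, where Cyp1a1 was. Against vehicle Apoa1 at 55 mg/kg differed by -0.13 ± 0.06, with a 95% interval of -0.26 to -0.0037. Since vehicle was used in choosing the gene, this interval is a description and does not serve as a test.

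**Figure D1:**
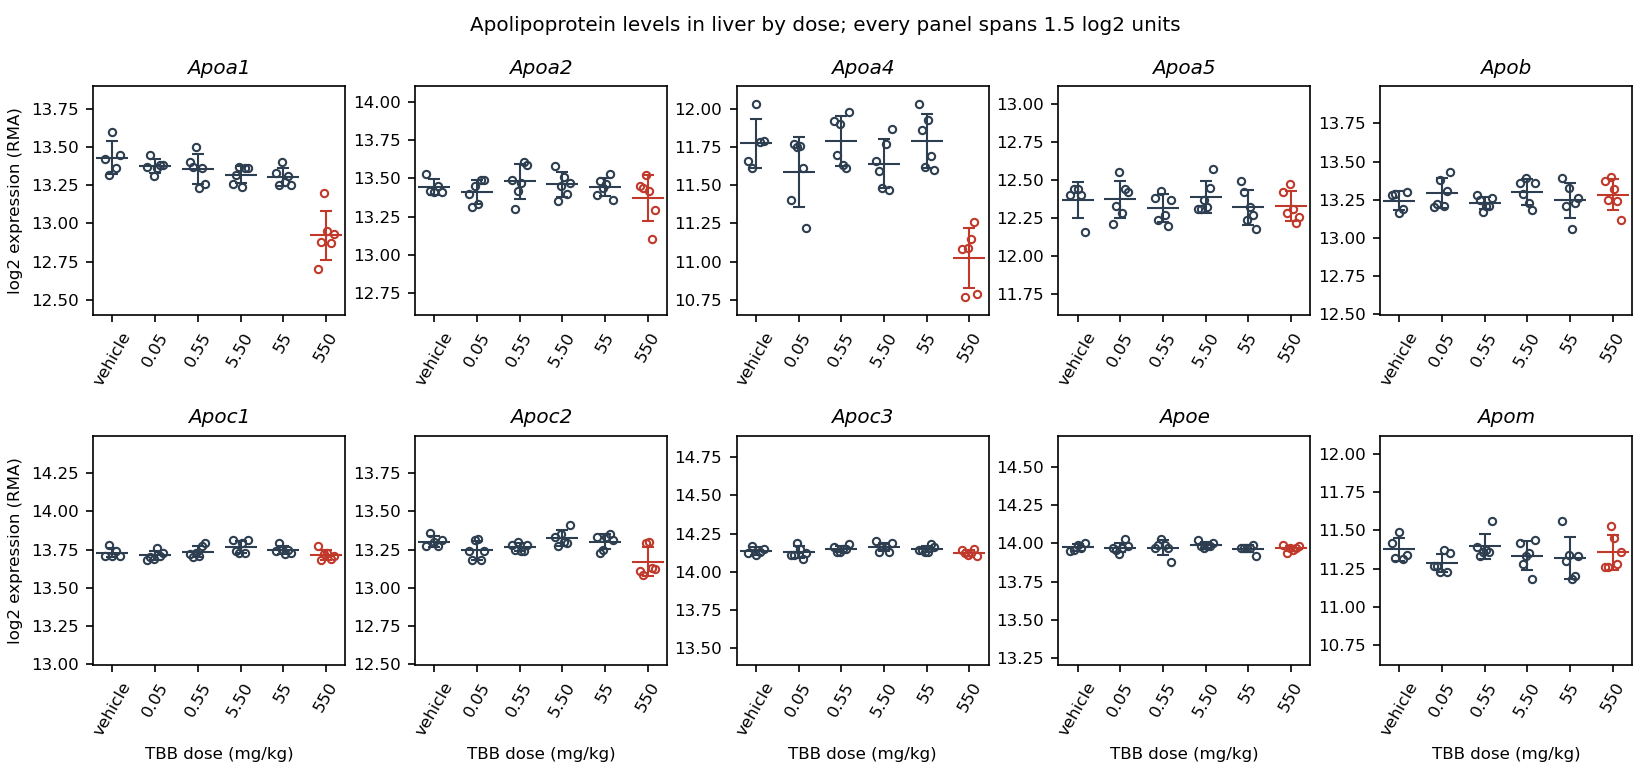
Log2 expression (vertical axis, 1.5 log2 units in every panel) of the 10 apolipoproteins by dose group (horizontal axis, mg/kg), with each array as a point, the bar at the group mean and its SD, and 550 mg/kg in red. Main probe sets are drawn. Apoa1 and Apoa4, whose values at 550 mg/kg led to the choice of the family, stand apart there (means 12.92 and 11.02). The other 8 keep all 6 group means within 0.153 of one another, while those of the second Apob set, not drawn, span 0.74.

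Apoa2 and Apom are carried mainly on high density lipoprotein. Apoa2 read 13.53, 13.42, 13.41, 13.45 and 13.41 in vehicle and from 13.10 through 13.43 to 13.52 at 550 mg/kg. The groups overlapped, with 2 of the 6 arrays at 550 mg/kg below all others and the other 4 within the vehicle range. The difference was -0.08 ± 0.06 (95% interval -0.21 to 0.05, adjusted p = 0.80, limma). Apom, which binds sphingosine-1-phosphate on these particles, read 11.42, 11.32, 11.49, 11.31 and 11.34 in vehicle and from 11.26 through 11.32 to 11.53 at 550 mg/kg, again overlapping. It differed by -0.02 ± 0.06 (adjusted p = 0.97, limma).

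Apob, the structural protein of very low density lipoprotein, read 13.28, 13.29, 13.16, 13.19 and 13.30 in vehicle and from 13.12 through 13.28 to 13.40 at 550 mg/kg. It was the 1 tested member of 8 with a positive difference, 0.04 ± 0.06 (95% interval -0.08 to 0.16, adjusted p = 0.91, limma). A second, dimmer Apob probe set (mean 7.10, percentile 74.6) varied more. It had means of 6.70 ± 0.368 (SD, n = 5) in vehicle, 7.44 ± 0.347 (SD, n = 6) at 0.05 mg/kg and 7.15 ± 0.488 (SD, n = 6) at 550 mg/kg. The differences from vehicle were 0.74 ± 0.26 (SE, adjusted p = 0.80, limma) and 0.45 ± 0.26 (SE, adjusted p = 0.67, limma). The main set differed by 0.05 ± 0.06 at 0.05 mg/kg, so the 2 sets of this gene disagreed in size there. With both sets averaged Apob differed by 0.39 at 0.05 mg/kg (adjusted p = 0.77, limma), 0.23 at 55 mg/kg (1.0) and 0.25 at 550 mg/kg (0.56), none of them called. Apoa5, a secreted activator of triglyceride lipolysis, read 12.40, 12.44, 12.44, 12.40 and 12.16 in vehicle and from 12.22 through 12.29 to 12.47 at 550 mg/kg. It differed by -0.04 ± 0.07 (95% interval -0.18 to 0.10, adjusted p = 0.92, limma).

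Of the C group, which regulates lipolysis, Apoc2 had the largest difference among the tested members. Apoc2 is the cofactor of lipoprotein lipase. It read 13.27, 13.36, 13.30, 13.27 and 13.31 in vehicle, and at 550 mg/kg from 13.08 through 13.13 to 13.30. Of the 6 arrays at 550 mg/kg, 4 lay below all 29 others, while replicates 3 and 4, at 13.29 and 13.30, lay within the vehicle range. The difference from vehicle was -0.13 ± 0.04 (95% interval -0.22 to -0.04), which did not pass (adjusted p = 0.25, limma). Against the 3 lower doses it was -0.11 ± 0.03 (adjusted p = 0.10, limma) and against 55 mg/kg -0.13 ± 0.04 (adjusted p = 0.21, limma). Without replicate 4 at 550 mg/kg the comparison with the 3 lower doses passed (-0.13, adjusted p = 0.049, limma). It passed in 4 of 32 alternative settings, over which the adjusted p ran from 0.031 to 0.28.

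Apoc3, an inhibitor of lipoprotein lipase, read 14.12, 14.17, 14.11, 14.13 and 14.15 in vehicle and from 14.10 through 14.12 to 14.15 at 550 mg/kg. It differed by -0.01 ± 0.03 (95% interval -0.08 to 0.05, adjusted p = 0.95, limma). Its gene lies between those of Apoa1 and Apoa4. Apoc1, an inhibitor of lipolysis and of particle uptake, read from 13.71 to 13.78 in vehicle and from 13.68 through 13.72 to 13.77 at 550 mg/kg, a difference of -0.01 ± 0.04 (adjusted p = 0.96, limma). Apoe, the ligand by which the liver takes up remnant particles, read from 13.95 to 14.00 in vehicle and from 13.94 through 13.97 to 13.99 at 550 mg/kg. Its difference was -0.01 ± 0.03 (95% interval -0.08 to 0.06, adjusted p = 0.98, limma). A second Apoe probe set was near the bottom of the scale (mean 3.08, percentile 12.6) and differed by -0.07 ± 0.12.

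None of the 8 tested members passed at 550 mg/kg against vehicle with limma, where 0.499% of all probe sets did, 0.354% higher and 0.145% lower. At an unadjusted p under 0.05 there was 1 of the 8, Apoc2, against 8.67% of all probe sets. The 8 differences ran from -0.13 to 0.04 with a median of -0.017, and 7 were negative. The median over all probe sets was 0.002 with 49% negative. Among the 3105 brightest probe sets, where the main sets of all 8 members lie, it was -0.0131 with 55.5% negative. The 95% intervals of the 8 members together ran from -0.22 to 0.16. The differences of Apoa1 (-0.51) and Apoa4 (-0.75) lay outside that range. Since the family was chosen by those 2 values, this is a description and no test of a contrast with the other 8. Against the 3 lower doses, where 2.85% of all probe sets passed (1.74% higher, 1.11% lower), again 0 of the 8 did, with 1 at an unadjusted p under 0.05 (all probe sets, 13.4%) and differences from -0.11 to 0.017. Against 55 mg/kg, where 0.686% passed (0.577% higher, 0.11% lower), it was 0 of 8, with 1 at an unadjusted p under 0.05 (9.43%).

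At the lower doses the members stayed close to vehicle. On their main probe sets 0 of the 8 passed with limma at 0.05, 0.55, 5.50 or 55 mg/kg, nor did any at an unadjusted p under 0.05. The share of all probe sets called was 0% at the first 3 of these doses and 0.00644% at 55 mg/kg. The share at an unadjusted p under 0.05 was 6.05, 3.86, 4.95 and 4.2% at the 4 doses in turn. The second Apob set had an unadjusted p of 0.0081 at 0.05 mg/kg (limma). On the main probe sets the differences ran from -0.09 (Apom) to 0.05 (Apob) at 0.05 mg/kg and from -0.06 (Apom) to 0.016 (Apoc1) at 55 mg/kg, and the second Apob set departed from this as given above.

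**Figure D2:**
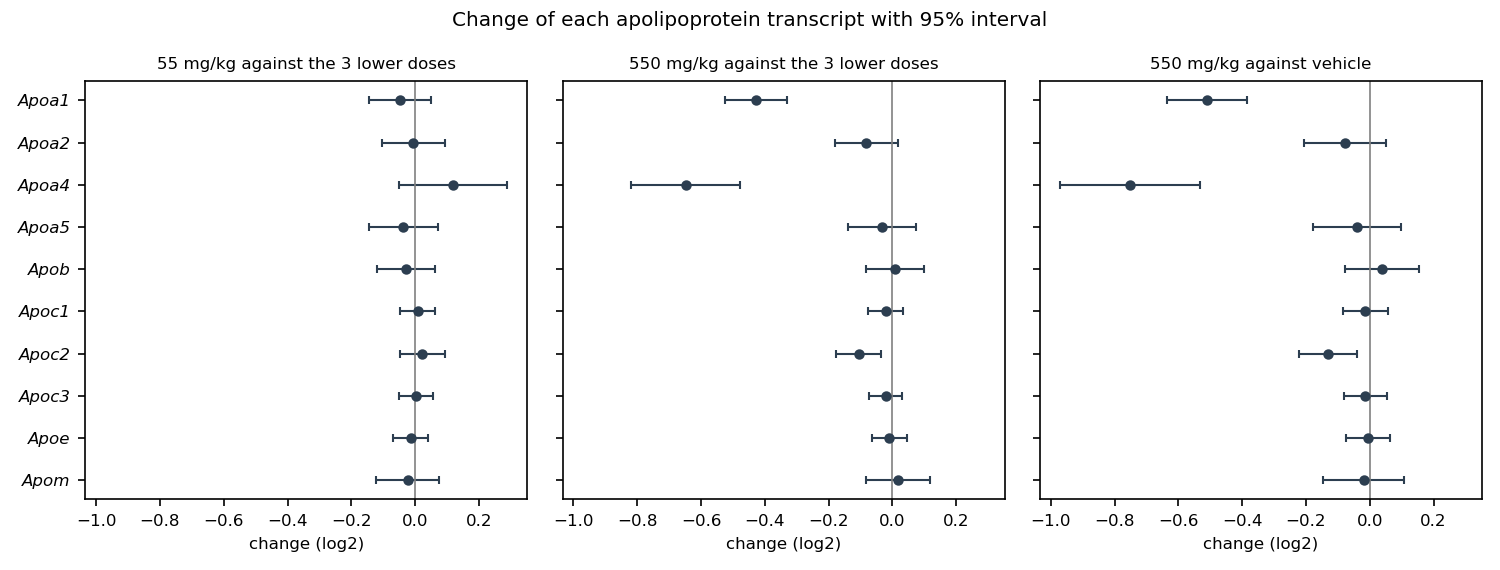
Difference in log2 expression with its 95% interval (horizontal axis) for each apolipoprotein in 3 comparisons, 55 mg/kg against the 3 lower doses, 550 mg/kg against the 3 lower doses and 550 mg/kg against vehicle. Apoa1 (-0.43 and -0.51) and Apoa4 (-0.65 and -0.75) stand apart in the comparisons of 550 mg/kg. The family was chosen by their values at that dose, so their intervals there are a description without a test. At 55 mg/kg the intervals of all 10 include 0.

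Several members sit near the top of the array's scale, where the spread of all probe sets is narrow. The brightest probe set of an array reached 14.54 to 14.65. Apoc3, Apoe and Apoc1 had means of 14.14, 13.97 and 13.73. Their highest single arrays lay 0.344, 0.515 and 0.728 below the lowest of the array maxima. Their SDs within groups were 0.0257, 0.029 and 0.0327, against a median of 0.141 over all probe sets. The 32 brightest probe sets, down to the mean of Apoc1, had a median SD of 0.0309, and their largest difference at 550 mg/kg against vehicle was 0.102 in size, in the fibrinogen gene Fga. Among the 100 brightest, down to a mean of 12.98, the largest was 1.03, in the cytochrome P450 gene Cyp1a2. Cyp1a2 went from 12.77 in vehicle to 13.81 at 550 mg/kg, above the mean of Apoc1. The part of the narrow range at the top of the scale in the small differences of Apoc3, Apoe and Apoc1 was not tested. Apoa2 (13.43), Apob and Apoc2 (both 13.27) were read at about the level of Apoa1 (13.28), and Apoa5 (12.35) and Apom (11.34) on either side of Apoa4 (11.59). Within-group SDs there were 0.0979, 0.0872 and 0.0586 beside 0.0966 for Apoa1, and 0.109 and 0.0982 beside 0.184 for Apoa4.

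**Figure D3:**
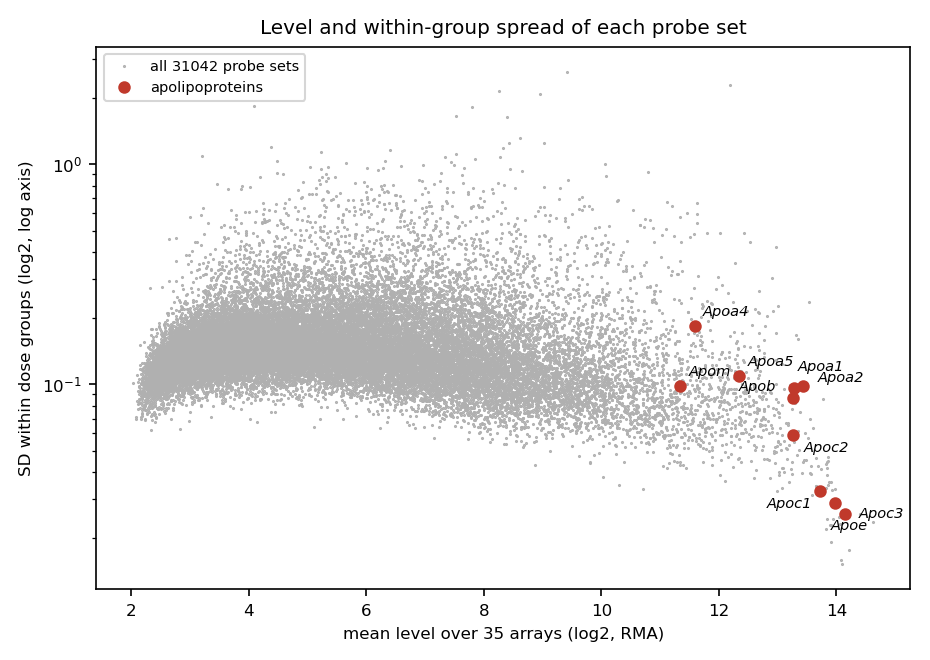
Mean log2 expression over 35 arrays (horizontal axis) and pooled SD within groups (vertical axis, log scale) of all 31042 probe sets in grey, with the apolipoproteins in red. Apoc3, Apoe and Apoc1 lie at the bright end with SDs of 0.0257 to 0.0327, where the spread of all probe sets narrows, while Apoa4 has an SD of 0.184.

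Variation among arrays of the same dose, which the choice of the genes did not use, was compared over the 45 pairs of members. Deviations from the group mean over 35 arrays gave 35 positive correlations with a median r of 0.21, and 0 pairs passed after Benjamini-Hochberg adjustment. Apoa1 and Apoa4, both lower at 550 mg/kg, were weakly related within groups (r = 0.124, permutation p = 0.53, adjusted 0.68; rho = 0.091, permutation p = 0.62, adjusted 0.80; r = 0.156 without the 2 farthest arrays). The pair with the most negative relation was Apoa1 and Apoc3 (r = -0.424, permutation p = 0.0038, adjusted 0.17; rho = -0.469, permutation p = 0.0078, adjusted 0.21; r = -0.458 without the 2 farthest arrays). With array medians subtracted that r was -0.211, and 3 other pairs passed, Apoa2 with Apoc1 (r = 0.547), Apoc1 with Apoc3 (0.496) and Apoc2 with Apoc3 (0.514), each at an adjusted p of 0.046 by permutation. Apoa4 with Apoa5 had r = 0.375 (permutation p = 0.046, adjusted 0.27; rho = 0.394, permutation p = 0.035, adjusted 0.28; r = 0.434 without the 2 farthest arrays).

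**Figure D4:**
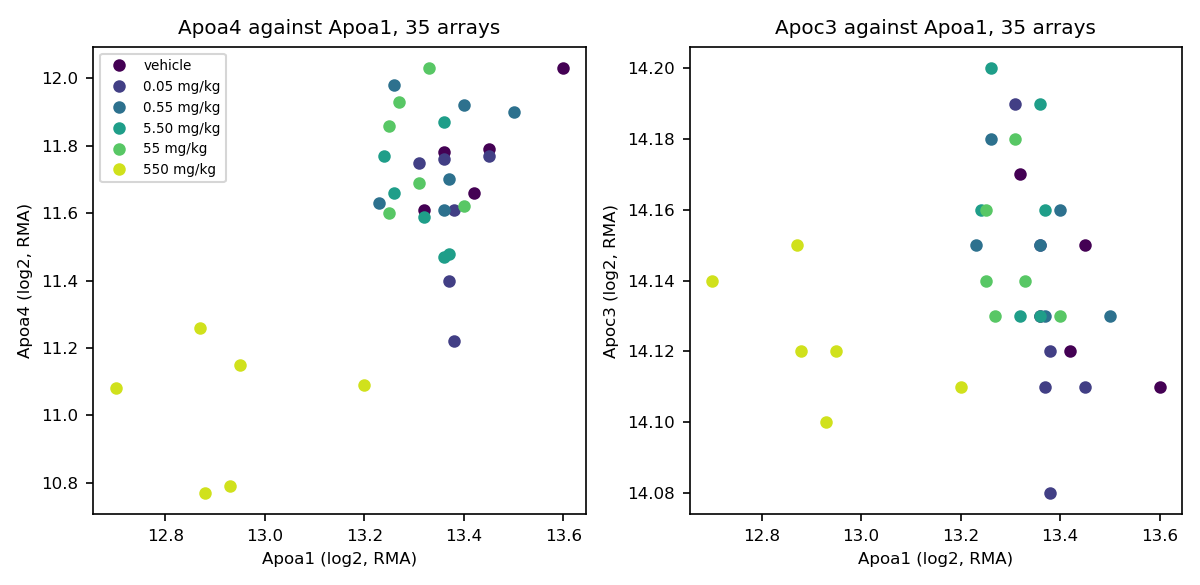
Log2 expression of Apoa4 and of Apoc3 (vertical axes) against Apoa1 (horizontal axes) on 35 arrays coloured by dose group. The 6 arrays at 550 mg/kg lie apart to the left, low in Apoa4 (10.77 to 11.26) and among the other arrays in Apoc3 (14.10 to 14.15).

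Among the 6 arrays at 550 mg/kg, Apoa1 and Apoa4 were set against Cyp1a1, Cyp1a2 and Acot1, as signs of how strongly an array responded. The 6 relations had r from -0.351 to -0.139 and adjusted p from 0.68 to 0.73 (exact permutation). Leaving out the 2 farthest arrays turned 4 of them positive, and r then ran from -0.975 (Apoa4 with Acot1) to 0.74 (Apoa4 with Cyp1a2). With 6 arrays no relation could be read.

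The genes whose levels ran most like Apoa1 over the 35 arrays, among 9550 brighter than the median, were Pheta1 (r = 0.938), an endosomal trafficking adaptor, Agmat (0.857), agmatinase, Rdh5 (0.84), a retinol dehydrogenase, A2m (0.831), alpha-2-macroglobulin, and Serpina6 (0.813), the corticosteroid-binding globulin. Pheta1 went from 6.29 in vehicle to 5.82 at 550 mg/kg and A2m from 9.21 to 7.59. Most of such a likeness lies between 550 mg/kg and the rest, so deviations from the group means were also used, and there Pheta1 again came first (0.757), followed by Tnks2 (0.62), Adgra2 (0.609), Agpat3 (0.605) and Kifc2 (0.595). For Apoa4 the nearest over 35 arrays were Serpina11 (0.819), Lcat (0.801), Rdh5 (0.80), Spp2 (0.799) and Apcs (0.793). By deviations they were Slc44a1 (0.64), a choline transporter, Serpina11 (0.624), Mgat1 (0.622), Ppm1k (0.608) and Tradd (0.607). Each of these lists holds the highest r among 9550 genes, and how high r would run by chance among so many was not tested. These likenesses are a description over arrays that share groups and normalisation.

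Of 9 measured genes among other apolipoproteins and associated proteins (12 listed), 0 passed at 550 mg/kg against vehicle, with a median difference of 0.097. Of all probe sets 0.499% passed against vehicle and 2.85% against the 3 lower doses. Against the 3 lower doses 1 of the 9 passed, Apon, a further apolipoprotein, higher by 0.36 ± 0.06 (adjusted p = 8.9e-05, limma). Against vehicle Apon differed by 0.29 ± 0.07 (adjusted p = 0.053, limma), so it went the opposite way to Apoa1. Of 17 measured genes of lipoprotein assembly and secretion (18 listed), 0 passed against vehicle and the median was -0.0031. Mttp, the transfer protein that loads Apob with lipid, differed by 0.04 ± 0.05 (adjusted p = 0.91, limma). Aadac, a lipid hydrolase, was higher against the 3 lower doses by 0.25 ± 0.06 (adjusted p = 0.019, limma), a call lost without replicate 1, 3 or 4 at 550 mg/kg, and differed by 0.16 ± 0.08 against vehicle (adjusted p = 0.59, limma).

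Of 9 measured genes of enzymes that act on lipoproteins in plasma (13 listed), 1 was lower at 550 mg/kg against vehicle and 0 higher, with a median of -0.21 and 7 negative (all probe sets, 49%). The median of these 9 was -0.11 against the 3 lower doses and -0.033 against 55 mg/kg. At 55 mg/kg against vehicle 7 were also negative (all probe sets, 49.3%), with a median of -0.043. The gene called lower at 550 mg/kg, as 0.145% of all probe sets were, was Lcat. Lcat is the enzyme that esterifies cholesterol on high density lipoprotein with Apoa1 as its activator. It read 12.39, 12.38, 12.46, 12.43 and 12.37 in vehicle and from 12.11 to 12.30 at 550 mg/kg, without overlap (lower without overlap, 0.548% of all probe sets). It fell by 0.21 ± 0.05 against vehicle (adjusted p = 0.028, limma) and by 0.21 ± 0.04 against the 3 lower doses (adjusted p = 0.00071, limma). The call against vehicle was lost in 8 of 19 other settings (adjusted p from 0.0054 to 0.21), and that against the 3 lower doses was lost in 0 of 32. Against 55 mg/kg Lcat was also called lower, as 0.11% of all probe sets were. That call was lost in 12 of 20 other settings (adjusted p from 0.011 to 0.19, limma). Lipc, hepatic lipase, differed by -0.21 ± 0.07 from vehicle (adjusted p = 0.23, limma).

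Of 15 measured receptors and transporters (17 listed), 1 was lower against vehicle and 0 higher, with a median of -0.056. Of all probe sets 0.145% were called lower and 0.354% higher there. Lsr, a receptor of the liver for triglyceride-rich lipoproteins, fell by 0.27 ± 0.07 (adjusted p = 0.048, limma), a call lost in 14 of 19 other settings (0.022 to 0.17). Against the 3 lower doses it fell by 0.21 ± 0.05 (adjusted p = 0.015, limma), a call lost without replicate 2 or 5 at 550 mg/kg (highest adjusted p = 0.075). In that comparison Cd36, a fatty acid transporter, was higher by 0.69 ± 0.12 (adjusted p = 0.00046, limma), while against vehicle it differed by 0.60 ± 0.15 (adjusted p = 0.066, limma). Scarb1, the receptor for high density lipoprotein, differed by -0.19 ± 0.09 (adjusted p = 0.59, limma). Abca1, the transporter that loads Apoa1 with lipid, differed by 0.45 ± 0.24 (adjusted p = 0.64, limma).

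Of 27 measured regulators (28 listed), 0 passed in either comparison of 550 mg/kg, and the median against vehicle was -0.0048. Hnf4a, the nuclear receptor known to drive many apolipoprotein genes, differed by -0.05 ± 0.13 from vehicle (adjusted p = 0.96, limma) and by -0.26 ± 0.10 from the 3 lower doses (adjusted p = 0.21, limma). Ppara, the receptor for fatty acids and fibrates, differed by -0.13 ± 0.23 (adjusted p = 0.93, limma) and Nr0b2, a repressor of bile acid synthesis, by -0.05 ± 0.24 (adjusted p = 0.98, limma). Transcript levels of a receptor do not measure its activity. At 55 mg/kg against vehicle 0 genes of these 5 lists passed. Apon, Cd36 and Aadac were named after their values were seen.

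In bulk tissue fewer cells of a type and less RNA per cell cannot be told apart, so markers were read on the same arrays. A hepatocyte score, the mean of 13 genes with no apolipoprotein among them, was 12.84 ± 0.0403 (SD, n = 5) in vehicle and 12.76 ± 0.0652 (SD, n = 6) at 550 mg/kg, with ranges of 12.80 to 12.91 and 12.68 to 12.84. The difference was -0.08 (95% interval -0.17 to 0.011), and -0.10 (-0.17 to -0.031) from the 3 lower doses. The median over the 13 genes was smaller, -0.049 and -0.053. The largest steps from vehicle were in the regulated metabolic genes Tat (9.74 to 9.32) and Pck1 (12.89 to 12.64). Of the 13 genes, 10 were negative against vehicle and 10 against the 3 lower doses. Among the 3105 brightest probe sets, where all 13 lie, 55.5 and 50.3% were negative. A decrease shared by hepatocyte genes was not tested. Within groups this score was related to Apoa5 (r = 0.533, permutation p = 0.0025, adjusted 0.025 over 10 relations; rho = 0.587, permutation p = 0.00083, adjusted 0.0083; r = 0.531 without the 2 farthest arrays), and passed for no other member. For Apoa1 the relation was r = 0.0222 (permutation p = 0.90, adjusted 0.90; rho = 0.0133, permutation p = 0.94, adjusted 0.94; r = 0.153 without the 2 farthest arrays). For Apoa4 it was r = 0.181 (permutation p = 0.32, adjusted 0.60; rho = 0.175, permutation p = 0.35, adjusted 0.62; r = 0.197 without the 2 farthest arrays). Of 9 Kupffer cell markers, 9 were negative at 550 mg/kg (all probe sets, 49%), with a score difference of -0.22 (-0.64 to 0.20). At 0.55 mg/kg 9 were negative too, with a score difference of -0.23, and 550 mg/kg differed from the 3 lower doses by -0.067 (-0.39 to 0.26). Beside these, the score of 3 erythroid genes differed by -0.33 (-0.57 to -0.10). Scores of 7 intestinal genes, a tissue that also makes Apoa4, differed by 0.10 (-0.13 to 0.33). Of these, the brush border enzyme gene Si was at percentile 2.14, Fabp2, the intestinal fatty acid binding protein, read 5.97 in vehicle and 5.99 at 550 mg/kg, and the cadherin gene Cdh17 read 8.62 and 9.14. The 3' minus 5' differences of beta-actin, GAPDH and hexokinase, a sign of RNA quality, differed from vehicle by -0.048, -0.014 and -0.039 at 550 mg/kg, with intervals that include 0. Their part in the differences of Apoa1 and Apoa4 was not tested.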

How the data were processed

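Rat liver RNA was read on 35 Affymetrix 3' arrays. What the authors deposited is 1 log2 value for each probe set and array. Per the submitters' processing notes the tools were affy and RMA. Versions, chip definition and filters were not given in the sources used here. RMA equalises array distributions, which hides a shift common to most genes. The number of arrays limits the precision.

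Of 31099 rows, 57 controls were left out and 31042 tested. Members were probe sets annotated with 1 member symbol alone (12 of 12 matched GRCr8 symbols by Entrez identifier). The labels gave the groups. limma 3.58.1 in R 4.3.3 (lmFit, contrasts, eBayes) fitted 1 mean per group over 35 arrays, two-sided, with Benjamini-Hochberg adjustment over all probe sets in each comparison and 0.05 as the threshold. Errors are standard errors unless marked SD. Apoa1 and Apoa4 were tested at 55 mg/kg against the 3 lower doses alone. The fit was tested on simulated data. Correlations used permutation within groups.

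Members and lists were chosen with earlier results of these data known. Named genes were all members, up to 4 called genes per lipid list, a set of lipid genes whatever their values, and the 5 genes most like Apoa1 and Apoa4. Alternatives were array median subtraction, cyclic loess, eBayes with trend and robust settings, array weights, the dimmest 40% left out, the mean of a gene's probe sets, a replicate block, only the groups compared, and each array left out.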

Additional observations from a re-analysis of the deposited data

Results flagged for a closer look

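In 3 of the 60 combinations of apolipoprotein and dose group 1 array lay far from the rest of its group by Dixon's criterion, which chance exceeds in about 1 of 20 groups. Apoa5 in vehicle replicate 5 was the lowest of its group at 12.16, with the next array at 12.40. Apoe in 55 mg/kg replicate 6 was the lowest at 13.92, with the next at 13.97. Apom in 0.55 mg/kg replicate 6 was the highest at 11.56, with the next at 11.39. Without vehicle replicate 5 the difference of Apoa5 at 550 mg/kg from vehicle was -0.09 in place of -0.04, and it was called in neither case.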

How the results depend on the processing

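Among the 8 tested members 0 were called in each of the 5 comparisons with vehicle and at 550 against 55 mg/kg in every setting tried, and 0 of the 10 at 55 mg/kg against the 3 lower doses. At 550 mg/kg against the 3 lower doses the count of 0 became 1 (Apoc2) with cyclic loess, with eBayes trend and robust settings and with a gene's probe sets averaged, and ranged from 0 to 1 as single arrays were left out, reaching 1 without 550 mg/kg replicate 4. Subtracting array medians took the correlated pairs from 0 to 3. Apoa1 at 550 mg/kg against vehicle ranged from -0.565 to -0.465 and Apoa4 from -0.80 to -0.687 as single arrays were left out.

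The number of probe sets called overall was less stable. The count of 155 at 550 mg/kg against vehicle was 41 with only the groups compared, 77 without vehicle replicate 3 and 198 with the dimmest 40% left out. The count of 884 against the 3 lower doses was 549 without 550 mg/kg replicate 4 and 1217 with array weights. At 550 against 55 mg/kg the count of 213 ranged from 76 with only the groups compared to 327 with array weights. Replicate numbers do not pair the arrays, since same-numbered arrays of different groups had a median correlation of -0.00923 over 85 pairs and 7 of 35 arrays correlated best with their own number. With the replicate block the members called remained 0 in all 8 comparisons. Another scaling moved the median of all probe sets by at most 0.0121.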
